A study of Homo sapiens with 12 samples.

Results

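The genes of fatty acid synthesis and desaturation were followed in T47D cells treated with anastrozole and estradiol (E2). The 10 genes FASN, ACACA, ACLY, ACSS2, SCD, ELOVL5, ELOVL6, FADS1, FADS2 and ACSL3 were taken by symbol from a count table of 25370 genes, and all 10 had reads in every library. T47D is a human luminal breast cancer line with estrogen receptor α, anastrozole is a nonsteroidal aromatase inhibitor used in breast cancer, and E2 is the main ligand of the receptor. The 12 RNA-seq libraries fell into 4 groups of 3 replicates lettered a, b and c, which received vehicle, 10 nM anastrozole, 0.1 nM E2, or both agents at these doses (the combination). All groups, vehicle included, had spent 48 hours in 5% charcoal-stripped serum, which is poor in steroids, and then 24 hours without serum. The labels give 12 hours of treatment and the study's methods 24 hours. The comparisons asked how far anastrozole acts on the transcriptome like E2 or unlike it. A single cell line was used, and nothing in the labels says that replicates were separate cultures. The p-values therefore rest on the spread between these libraries, which may be technical. The fits estimate that spread partly across genes, so a gene with widely spread replicates can have a standard error that understates its own spread.

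Fatty acids are built in the cytosol from acetyl-CoA. ACLY splits citrate into acetyl-CoA and oxaloacetate, and ACSS2 makes acetyl-CoA from acetate. ACACA (acetyl-CoA carboxylase) turns acetyl-CoA into malonyl-CoA, and FASN (fatty acid synthase) joins these units into palmitate. ELOVL6 lengthens saturated and monounsaturated chains and ELOVL5 polyunsaturated ones, SCD places the first double bond in stearate and palmitate, FADS1 and FADS2 desaturate polyunsaturated chains, and ACSL3 activates long fatty acids to acyl-CoA. Transcription of most of these genes is known to be raised by SREBP proteins (products of SREBF1 and SREBF2) together with NF-Y, which binds CCAAT boxes, and breast cancer cells are known to make much of their fatty acid themselves.

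The libraries held between 9914253 and 17009776 gene reads (median 13538621). The 10 genes took between 0.524% and 0.600% of the gene reads of a library. The label of the cells was borne out by 8 of 8 luminal markers at a TMM-normalized level of 1 CPM (counts scaled to library size) or more in every library (summed level 9969 to 11024 CPM), while 0 of 4 adipocyte markers and 0 of 3 endothelial markers reached that level in all libraries. COL1A1, at 80.04 to 99.9 CPM, was the only fibroblast marker of 3 above it, TP63, at 1.05 to 2.33 CPM, the only basal marker of 3, and CD68, at 3.12 to 7.14 CPM, the only immune marker of 3. The replicate pair furthest apart was a and c of anastrozole (chi-square per degree of freedom 4.83, against 1.28 for the closest pair, with 1 expected from counting alone). In RNA from whole cultures, fewer cells expressing a gene and less RNA per cell cannot be told apart.

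Promoter sequence of SCD, ACLY and ACSS2 is shown because their levels moved together over the 12 libraries, as described further on. FASN and FADS2 also moved together (Pearson r = 0.840) and are not shown. The choice came from these data, and whether promoter sequence bears on the shared movement was not tested. Sequences come from RefSeq on GRCh38.p14, run 5′ to 3′ on the gene's strand and cover the 250 bases before a transcription start. Capitals mark CCAAT, or ATTGG where the box lies on the other strand. The SCD window is chr10:100346983-100347232 on the plus strand, the ACLY window (the first of 2 starts) chr17:41919023-41919272 on the minus strand, and the windows of the 2 ACSS2 starts chr20:34874739-34874988 and chr20:34876362-34876611 on the plus strand.
SCD: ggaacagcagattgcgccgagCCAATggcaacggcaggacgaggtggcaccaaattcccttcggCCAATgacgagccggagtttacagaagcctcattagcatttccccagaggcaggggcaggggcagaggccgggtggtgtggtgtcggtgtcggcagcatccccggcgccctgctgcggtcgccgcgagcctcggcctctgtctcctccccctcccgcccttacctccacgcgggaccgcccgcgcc
ACLY: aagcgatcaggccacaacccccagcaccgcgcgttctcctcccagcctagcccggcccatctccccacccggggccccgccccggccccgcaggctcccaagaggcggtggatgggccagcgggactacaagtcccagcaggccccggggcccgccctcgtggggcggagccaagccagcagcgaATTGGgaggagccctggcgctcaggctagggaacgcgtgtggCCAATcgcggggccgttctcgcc
ACSS2, first start: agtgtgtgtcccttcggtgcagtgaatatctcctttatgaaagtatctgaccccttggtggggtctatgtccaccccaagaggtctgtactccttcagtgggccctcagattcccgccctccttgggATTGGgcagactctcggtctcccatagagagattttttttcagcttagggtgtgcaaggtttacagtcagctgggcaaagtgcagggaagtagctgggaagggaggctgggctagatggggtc
ACSS2, second start: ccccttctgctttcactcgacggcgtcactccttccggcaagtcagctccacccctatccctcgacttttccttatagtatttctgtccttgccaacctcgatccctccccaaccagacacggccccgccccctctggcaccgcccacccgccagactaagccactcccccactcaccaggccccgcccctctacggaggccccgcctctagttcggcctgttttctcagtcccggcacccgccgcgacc

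The SCD and ACLY windows each hold 2 CCAAT boxes, the first ACSS2 window holds 1 and the second holds 0. Promoter windows from 250 bases before to 50 bases after the start were matched for 9 of the 10 genes, with 14 starts. FASN had no window to search. On either strand CCAAT occurred in 9 of the 14 windows and in 34.6% of all 35116 promoter windows of the table. The estrogen response element half-site GGTCA occurred in 8 of the 14 and in 37.4% of all windows. The SREBP element searched as TCACNCCAC occurred in 0 of the 14 and in 1.13% of all windows. At so low a share, its absence from 14 windows says nothing about SREBP. The E-box CACGTG occurred in 1 of the 14 (ELOVL5) and in 7.26% of all windows. The GC box GGGCGG occurred in 11 of the 14 and in 45% of all windows. Of the 14 CCAAT matches in the genes' windows, 0 overlapped another of these motifs. Windows of neighbouring starts of a gene share sequence, and a match of letters is a description only.

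Per length, SCD was the most abundant of the genes in every group. With vehicle its level was 545 ± 6.15 CPM per kb of the main transcript (SD, n = 3), followed by ACLY at 182 ± 4.16, ELOVL5 at 165 ± 5.16 and FASN at 140 ± 3.23 CPM per kb. ACSS2 stood at 38.6 ± 1.43 CPM per kb. FADS2 (25.1 ± 1.59), ACACA (24.3 ± 0.740) and ACSL3 (23.5 ± 0.857) lay within their spread of each other on this scale, FADS1 followed at 19.0 ± 0.740, and ELOVL6 was lowest at 4.98 ± 0.115 CPM per kb. Without correction for length, SCD ranked 7 among all genes with vehicle, FASN 60 and ACLY 108. ELOVL6, the gene with the fewest reads, still had 346 to 593 reads per library.

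**Figure D1:**
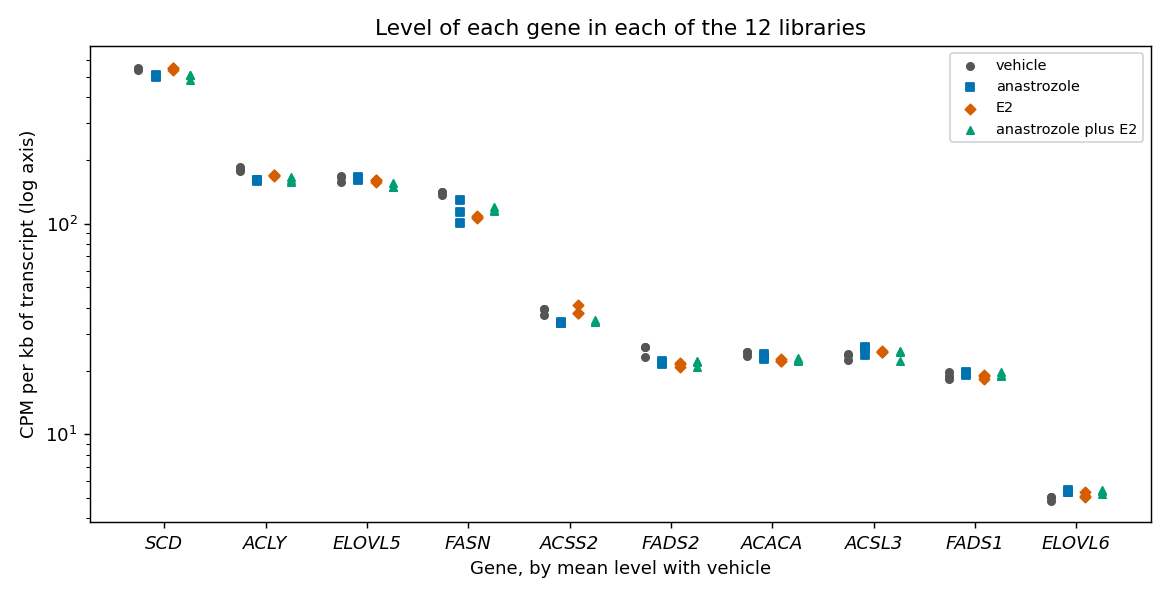
Level of each of the 10 genes in each library as CPM per kb of the main transcript (log axis), with 1 point per library and colours and shapes for the 4 groups. SCD sits highest, near 545 CPM per kb with vehicle, and ELOVL6 lowest, near 4.98 CPM per kb, and the differences between groups are small beside those between genes.

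FASN, which carries out the assembly of palmitate, changed most among the 10 genes in each comparison with vehicle as fitted without correction for GC content, while with it the anastrozole changes of ACSS2 and FASN were both -0.15. The gene lies at chr17:80036214-80056170 (GRCh37, minus strand). Its level was 1205, 1156 and 1202 CPM in vehicle replicates a, b and c, and 913, 925 and 900.3 CPM with E2. With anastrozole it was 854.5, 962 and 1102 CPM, and with anastrozole plus E2 it was 972, 1023 and 986 CPM. Every treated library lay below every vehicle library, and the anastrozole replicates were the most spread, with a coefficient of variation of 12.7% against 1.35% to 2.63% in the other groups. The standard errors that follow draw partly on other genes and need not reflect this spread. FASN fell with E2 by 0.38 ± 0.03 on the log2 scale (SE, 0.77-fold of vehicle, edgeR adjusted p = 4.8e-38), with anastrozole by 0.29 ± 0.04 (0.82-fold, adjusted p = 8.7e-08) and with the combination by 0.26 ± 0.03 (0.84-fold, adjusted p = 8.7e-14). The E2 and combination calls held in all 15 alternative fits of each, which are 9 other settings and 6 that leave out 1 library. The anastrozole call was lost in 4 of them, namely with library size alone (adjusted p = 0.089), with a filter on low counts (0.149), with DESeq2 (0.116) and with limma-voom (0.150).

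Of the acetyl-CoA genes, ACLY fell with all 3 treatments and ACSS2 with both that contained anastrozole. ACLY (chr17:40023170-40086795, minus strand) measured 764, 800 and 784 CPM with vehicle, 695, 689 and 695 CPM with anastrozole, 732, 734 and 724 CPM when E2 was given, and 680, 715 and 692 CPM with the combination. All treated libraries lay below all vehicle libraries, and all with anastrozole lay below all with E2 alone. ACLY fell by 0.18 ± 0.04 with anastrozole (adjusted p = 0.0022), by 0.10 ± 0.03 with E2 (adjusted p = 0.0087) and by 0.17 ± 0.03 with the combination (adjusted p = 1.3e-05). The calls were lost without vehicle replicate c for anastrozole (adjusted p = 0.076) and E2 (0.068), without anastrozole replicate b (0.064) and without E2 replicate c (0.070), and for anastrozole with limma-voom (0.070). Its difference of anastrozole from E2 was -0.07 ± 0.04 (adjusted p = 0.58), which did not pass.

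ACSS2 (chr20:33459949-33515765, plus strand) measured 106.5, 113 and 114 CPM with vehicle and 108.5, 119 and 108.3 CPM with E2. With anastrozole it was 98.0, 98.7 and 97.3 CPM, and with the combination 98.8, 101 and 99.0 CPM. All 6 libraries with anastrozole lay below the 6 without it. ACSS2 fell with anastrozole by 0.18 ± 0.05 (adjusted p = 0.023) and with the combination by 0.16 ± 0.04 (adjusted p = 0.0094). With E2 its change was 0.01, with a 95% interval from -0.07 to 0.09 (adjusted p = 0.96). Against E2, ACSS2 fell by 0.19 ± 0.05 with anastrozole (adjusted p = 0.0099) and fell by 0.17 ± 0.04 with the combination (adjusted p = 8.9e-04). The call of anastrozole against vehicle was lost without vehicle replicate b or c or anastrozole replicate a or b (adjusted p from 0.083 to 0.23), and that of the combination without vehicle replicate c (0.11) or combination replicate c (0.066). Both were also lost with DESeq2 (adjusted p = 0.064 and 0.053) and limma-voom (0.136 and 0.079), and the difference of the combination from E2 with limma-voom (0.072). Without E2 replicate b, the highest ACSS2 library, the differences from E2 were -0.14 (adjusted p = 0.49) and -0.12 (adjusted p = 0.097). The ACSS2 call of anastrozole against E2 was kept in 4 of 6 fits that leave out a library and 5 of 9 other settings. That call was also lost without anastrozole replicate b (adjusted p = 0.062), with the filter on low counts (0.052), with DESeq2 (0.097), with limma-voom (0.184) and with the replicate letter as a block (0.071).

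ACACA (chr17:35441927-35766927, minus strand), the carboxylase that commits acetyl-CoA to fatty acids, measured 248, 247 and 235 CPM with vehicle, 241, 232 and 228 CPM with anastrozole, 223, 224 and 229 CPM under E2, and 223, 230 and 225 CPM with the combination. All libraries with E2, alone or combined, lay below all vehicle libraries, while the anastrozole libraries overlapped them. ACACA fell by 0.11 ± 0.03 with E2 (adjusted p = 0.017). The changes of -0.06 ± 0.05 with anastrozole (adjusted p = 0.63) and -0.11 ± 0.04 with the combination (adjusted p = 0.071) did not pass, though the latter was called in 3 of 9 other settings, among them removal of the GC trend described further on (adjusted p = 0.031). Leaving out vehicle replicate a, E2 replicate a or E2 replicate b lost the E2 call, with adjusted p of 0.075, 0.087 and 0.081, as did limma-voom (0.058).

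SCD, the stearoyl-CoA desaturase that makes oleate, lies at chr10:102106990-102124583 (plus strand). It measured 2847, 2897 and 2837 CPM with vehicle and 2888, 2897 and 2835 CPM with E2. With anastrozole it was 2667, 2638 and 2604 CPM, and with the combination 2519, 2666 and 2667 CPM. As for ACSS2, all 6 libraries with anastrozole lay below the 6 without it. SCD fell with the combination by 0.13 ± 0.03 against vehicle (adjusted p = 8.4e-04) and by 0.13 ± 0.03 against E2 (adjusted p = 8.0e-05). It also fell by 0.12 ± 0.03 with anastrozole against E2 (adjusted p = 0.028). Against vehicle the anastrozole difference was -0.12 ± 0.04 (adjusted p = 0.052), just short of the threshold, and it was called in 6 of 9 other settings and in 1 of 6 fits that leave out a library, that without anastrozole replicate c (adjusted p up to 0.286 in the others). With E2 the change was 0.01, with an interval from -0.04 to 0.06 (adjusted p = 0.95). The call of anastrozole against E2 was lost without anastrozole replicate b (adjusted p = 0.25) and without E2 replicate a (0.21), b (0.49) or c (0.20), where the fold change stayed between -0.13 and -0.11. That call was also lost with the replicate letter as a block (-0.12, adjusted p = 0.051).

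FADS2, the desaturase of the first step from linoleate, lies at chr11:61560452-61634826 (plus strand). It measured 80.5, 71.9 and 80.4 CPM with vehicle. The 9 treated libraries lay between 64.4 and 68.8 CPM, below the lowest vehicle library. FADS2 fell by 0.20 ± 0.06 with anastrozole (adjusted p = 0.030), by 0.23 ± 0.05 with E2 (adjusted p = 1.7e-04) and by 0.21 ± 0.05 with the combination (adjusted p = 0.0015). The anastrozole call was lost without vehicle replicate a or c or anastrozole replicate a or b, with adjusted p from 0.141 to 0.273, and it was kept in 4 of 9 other settings, being lost with the filter on low counts (0.058), DESeq2 (0.10), limma-voom (0.18) and the GC trend removed. The FADS2 call with the combination was lost with limma-voom (adjusted p = 0.121). FADS1, the neighbouring desaturase on the minus strand (chr11:61567099-61596790), lay between 80.1 and 86.8 CPM in all 12 libraries and was not called in any comparison. In the annotation the 2 genes share 490 exon bases on opposite strands, so if strand was not used in counting, reads from those bases cannot be assigned to one of them.

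Of the elongases and ACSL3, only ELOVL5 passed the test against vehicle, with the combination. ELOVL5 (chr6:53132196-53213977, minus strand) measured 439, 466 and 460.1 CPM with vehicle and 415, 415 and 431 CPM with the combination. It fell by 0.11 ± 0.03 with the combination (adjusted p = 0.020), and its anastrozole libraries (445 to 462 CPM) overlapped vehicle. Without vehicle replicate b or c or combination replicate a or b, that call was lost (adjusted p = 0.115, 0.174, 0.054 and 0.173), and with limma-voom (0.112). ELOVL6 (chr4:110967002-111120355, minus strand) lay between 31.9 and 33.3 CPM with vehicle and between 34.4 and 35.9 CPM in the 6 libraries with anastrozole, groups that did not overlap. Its change of 0.11 ± 0.08 with anastrozole was not called (adjusted p = 0.59). ACSL3 (chr2:223725660-223809357, plus strand) lay between 124.7 and 144.9 CPM in the 12 libraries, and its largest change against vehicle was 0.10 ± 0.05 with anastrozole (adjusted p = 0.35).

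**Figure D2:**
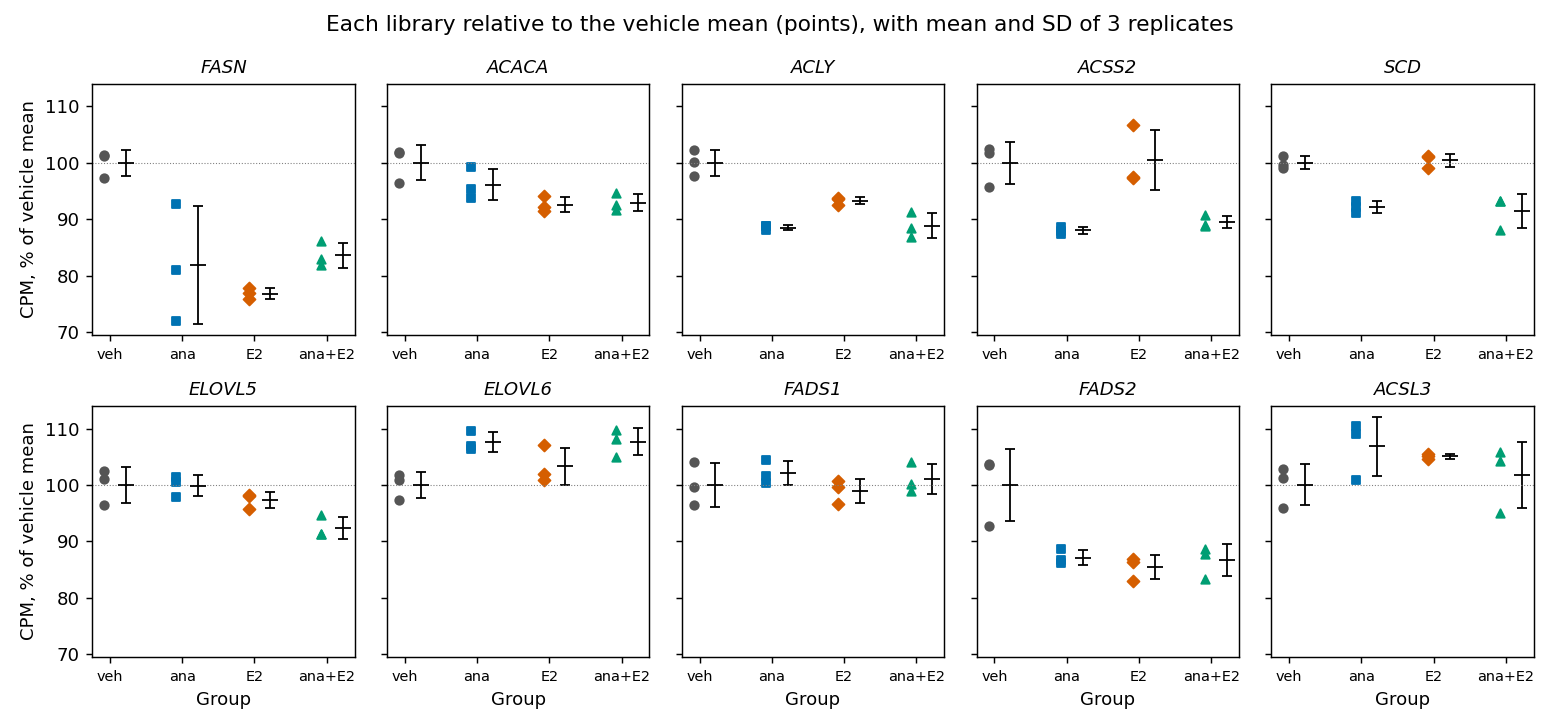
Each library's CPM as a percentage of the gene's vehicle mean (points) for vehicle (veh), anastrozole (ana), E2 and the combination (ana+E2), with the mean and SD of 3 replicates to the right of the points. FASN is below vehicle in all treated libraries, with anastrozole replicates from 854.5 to 1102 CPM, and ACSS2 and SCD are low in both groups that received anastrozole.

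Counted over the 10 genes, every change called against vehicle was a fall. With anastrozole 4 fell (FASN, ACLY, ACSS2 and FADS2) and 0 rose, where 2.27% of all 21132 genes tested were lower and 1.40% higher at the same threshold, an adjusted p under 0.05. With E2 4 fell (FASN, ACACA, ACLY and FADS2) and 0 rose, against 5.95% lower and 6.06% higher among all genes. With the combination 6 fell (FASN, ACLY, ACSS2, SCD, ELOVL5 and FADS2) and 0 rose, against 2.33% lower and 2.71% higher. Among the 6532 genes at least as abundant as the least abundant of the 10, where small changes are easier to call, 6.02%, 14.7% and 6.12% were lower. The median change of the 10 was -0.09, -0.03 and -0.12 with anastrozole, E2 and the combination, and the median of all genes at 1 CPM or more was between -0.00 and 0.01. The 3 comparisons share the vehicle libraries. With anastrozole the count was 2 with the filter on low counts, 2 with DESeq2 and 0 with limma-voom, 1 without vehicle replicate c, 1 without anastrozole replicate b and 2 without anastrozole replicate a. With the combination it was 3 under limma-voom.

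**Figure D3:**
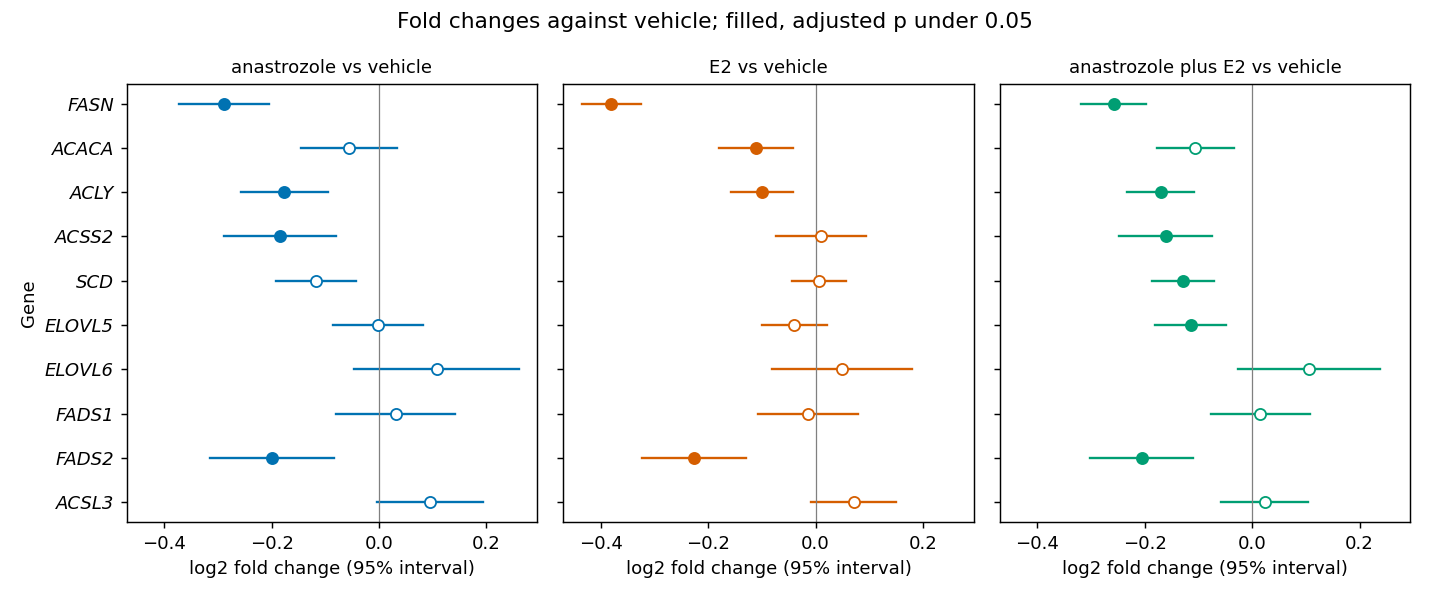
Log2 fold change against vehicle with its 95% interval for each gene and treatment, from edgeR fits on the 6 libraries of each comparison. Filled points passed an adjusted p of 0.05, which 4 genes did with anastrozole, 4 with E2 and 6 with the combination, all to the left of 0.

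Compared directly, anastrozole and E2 differed in 2 of the 10 genes. ACSS2 and SCD were lower with anastrozole, where 0.705% of all genes were lower and 0.620% higher (1.65% and 1.71% of 6532 more abundant genes). Neither was called without anastrozole replicate b or without E2 replicate b, 1 of them was called without E2 replicate a or c, and 1 with the filter on low counts, DESeq2 or limma-voom. With the replicate letter as a block, neither was called (ACSS2 adjusted p = 0.071, SCD 0.051). FASN differed by 0.10 ± 0.08 (95% interval from -0.07 to 0.27, adjusted p = 0.82), and without anastrozole replicate a, its lowest library, the difference was 0.18 (adjusted p = 2.2e-04). Without anastrozole replicate c the FASN difference was -0.0041 and was not called. As fitted without correction for GC content, adding anastrozole to E2 changed 3 genes. ACSS2 and SCD were lower and FASN higher, by 0.12 ± 0.03 (adjusted p = 0.0011), with 3.51% of all genes lower and 3.23% higher (1424 genes, or 197 with the GC trend removed). Among the 6532 more abundant genes, 10.2% were lower and 7.58% higher. In a fit on all 12 libraries the FASN difference was not called (adjusted p = 0.11). With the GC trend removed the FASN difference was -0.01 (edgeR adjusted p = 0.93), and ACLY was called (-0.10, adjusted p = 0.026). Adding E2 to anastrozole changed 0 of the 10 by edgeR or limma-voom, and 0 by DESeq2, which gave no adjusted p for ELOVL6, where 1.71% of all genes were higher and 1.18% lower by edgeR. At an unadjusted p under 0.05 edgeR gave 1 gene, ELOVL5 (-0.11 ± 0.04, adjusted p = 0.12). Without anastrozole replicate c, ELOVL5 (-0.13, adjusted p = 0.011) and FASN (0.13, adjusted p = 0.010) passed in that comparison.

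The effect of anastrozole on FASN differed with E2, by an amount that itself changed with correction for GC content. The interaction, the log2 effect of anastrozole in the presence of E2 minus that in its absence, was 0.41 ± 0.06 for FASN (adjusted p = 3.4e-06) and 0.22 ± 0.07 for FADS2 (adjusted p = 0.032), and 5.93% of all genes were higher and 4.93% lower (2295 genes, or 553 with the GC trend removed). Among the 6532 more abundant genes, 14.2% were higher and 13.0% lower. For FASN the effect of anastrozole was -0.29 without E2 and 0.12 with it. With the GC trend removed the latter was -0.01 (adjusted p = 0.93) and the FASN interaction 0.14 (adjusted p = 0.018). ACSS2 and SCD had interactions of 0.01 (95% interval from -0.11 to 0.14) and -0.02 (from -0.10 to 0.07). The change of ACSS2 with anastrozole was -0.18 without E2 and -0.17 with it, and that of SCD -0.12 and -0.13. Without combination replicate a the FASN interaction was 0.42 (adjusted p = 0.052). The FADS2 interaction was called in 5 of 12 fits that leave out a library and in 4 of 8 other settings, and with the GC trend removed it was 0.06 (adjusted p = 0.80).

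The GC content of the exons moved with these differences. FASN had the highest GC content of the 10 genes (65.2%) and FADS2 the next (57.5%), and ACSL3 the lowest (39.0%). Across 10847 genes the Spearman correlation of the log2 fold change with GC content was -0.533 with anastrozole, -0.548 with E2 and -0.026 with the combination. Over the 10 genes alone it was -0.782, -0.782 and -0.770 in the same order. For the combination against E2 it was 0.685 across all these genes and 0.345 over the 10, and for the interaction 0.708 and 0.903. Genes are not independent and share libraries, so these are descriptions. When the GC trend of each library was removed by an offset, which also removes any change by treatment that follows it, the change of FASN was -0.15 with anastrozole (adjusted p = 4.2e-05), -0.23 with E2 (1.7e-18) and -0.24 with the combination (2.3e-16). The change of FADS2 was -0.14 with E2 (adjusted p = 0.035) and with anastrozole -0.12 (adjusted p = 0.23). ACLY was not called with E2 (-0.06, adjusted p = 0.13) in this fit, and ELOVL5 was (-0.10, adjusted p = 0.010). SCD, at 46.5% GC, fell with anastrozole by 0.13 (adjusted p = 1.1e-04), and anastrozole against E2 gave -0.20 for ACSS2 (adjusted p = 1.7e-04) and -0.12 for SCD (4.7e-04).

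**Figure D4:**
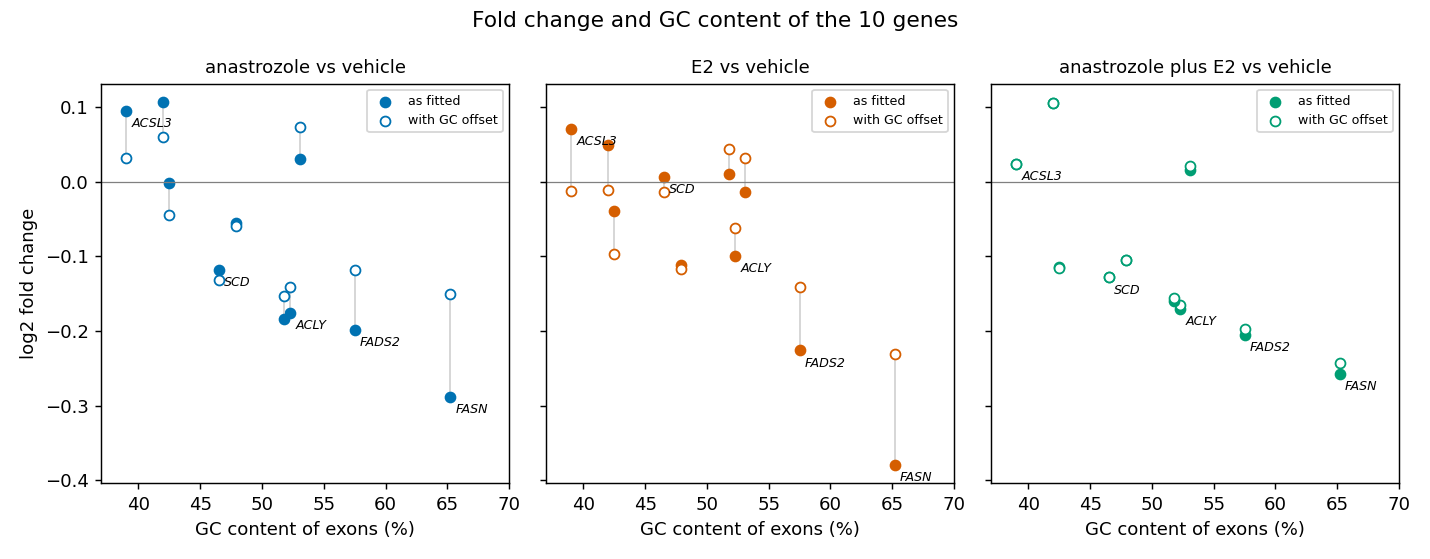
Log2 fold change of each of the 10 genes against vehicle by GC content of its exons, as fitted (filled) and after removal of each library's GC trend (open), for the 3 treatments. FASN, at 65.2% GC, moves from -0.38 to -0.23 with E2 and from -0.29 to -0.15 with anastrozole, and hardly at all with the combination.

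Over the 12 libraries the log2 levels of ACSS2 and SCD were closest (Pearson r = 0.891), followed by FASN and FADS2 (0.840), ACLY and SCD (0.828) and ACLY and ACSS2 (0.809). ELOVL6 ran against ACLY (-0.769). These values rest on the same 12 libraries with group differences included. Among 11027 other genes, the 5 most like the mean profile of the 10 were MEGF9 (r = 0.942), LTBP1 (0.912), MYO5C (0.894), DHX9 (0.888) and PSME4 (0.887).

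Of the regulators of these genes, SREBF1, which encodes SREBP-1, the main activator of fatty acid synthesis genes, fell with all 3 treatments. Its level was 179 ± 5.89 CPM with vehicle, 160 ± 21.0 with anastrozole, 147 ± 1.27 with E2 and 161 ± 3.52 with the combination (SD, n = 3). As for FASN, the standard error with anastrozole need not reflect the wide spread of those replicates. The falls were by 0.29 ± 0.04 with E2 (adjusted p = 7.3e-12), by 0.17 ± 0.05 with anastrozole (adjusted p = 0.021) and by 0.15 ± 0.04 with the combination (adjusted p = 0.0058). Its GC content was 61.5%, and with the GC trend removed the anastrozole change was -0.06 (adjusted p = 0.57). That call was also lost without vehicle replicate a or c or anastrozole replicate a or b (adjusted p from 0.15 to 0.56), and the combination call without vehicle replicate c or combination replicate b or c (0.053 to 0.093) and with limma-voom (0.085). The SREBF1 change with anastrozole was -0.09 without anastrozole replicate a and -0.28 without anastrozole replicate c. SREBF2, the SREBP gene tied more to cholesterol, fell by 0.15 with anastrozole (adjusted p = 0.037) and by 0.10 with E2 (adjusted p = 0.042). The anastrozole call was kept in 2 of 6 fits that leave out a library and 4 of 9 other settings, and the E2 call in 2 of 6 and 3 of 9. Vehicle replicates a and c and replicates a and b of either treatment were the libraries whose removal ended them (adjusted p from 0.062 to 0.346). INSIG1, a sterol-sensitive brake on SREBP that is itself an SREBP target, rose by 0.14 ± 0.04 with E2 (adjusted p = 0.0071) and stood at -0.14 with anastrozole (adjusted p = 0.086), where 3 of 9 other settings called it, among them the GC trend removed (-0.17, adjusted p = 0.0020) and a fit on all 12 libraries (0.027). Against E2, INSIG1 fell by 0.27 ± 0.04 with anastrozole (adjusted p = 4.8e-07), a call that held in all 15 alternative fits. Of 16 regulators listed, 0 rose and 2 fell with anastrozole, 2 rose (INSIG1 and INSIG2) and 3 fell (SREBF1, SREBF2 and RXRA) with E2, and 1 fell (SREBF1) with the combination. Among all genes tested 1.40% rose and 2.27% fell with anastrozole, 6.06% and 5.95% with E2, and 2.71% and 2.33% with the combination. The median change of the regulators was -0.08, -0.06 and -0.04. Both falls with anastrozole, of SREBF1 and SREBF2, were lost with the GC trend removed (SREBF2 -0.08, adjusted p = 0.31), with the filter on low counts, with DESeq2 and with limma-voom. SCAP, MLXIPL and NR1H3 were not called in any of the 3 comparisons with vehicle.

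Genes that supply citrate, acetyl-CoA and NADPH were lower where they changed. Of 18, 4 fell with anastrozole, 4 with E2 and 3 with the combination, and 0 rose, against 2.27%, 5.95% and 2.33% of all genes lower. Of the 6532 more abundant genes, 6.02%, 14.7% and 6.12% were lower. The median change of the 18 was -0.09, -0.05 and -0.05. SLC25A1, the mitochondrial citrate carrier, measured 111 ± 5.23 CPM with vehicle, 93.6 ± 4.19 with anastrozole, 94.3 ± 6.01 with E2 and 105 ± 1.37 with the combination. It fell by 0.25 with anastrozole (adjusted p = 5.9e-04) and by 0.23 with E2 (5.8e-06). PC, pyruvate carboxylase, changed by -0.34, -0.30 and -0.25 with anastrozole, E2 and the combination (adjusted p = 0.0021, 2.8e-04 and 0.0078). For PC the anastrozole call was lost without vehicle replicate a or c or anastrozole replicate a (adjusted p from 0.051 to 0.070) and the combination call without vehicle replicate a or c or combination replicate c (0.055 to 0.113). Limma-voom lost the anastrozole calls of PC (0.136) and SLC25A1 (0.113) and the combination call of PC (0.113), and DESeq2 the latter (0.083). TALDO1, a transaldolase of the pentose phosphate pathway, fell by 0.17 with E2 (adjusted p = 0.0022). SLC25A1 had a GC content of 68.0% and its changes with anastrozole and E2 were -0.08 and -0.06 once the GC trend was removed (adjusted p = 0.48 for both).

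Of 14 other elongation and desaturation genes, 2 rose with E2 and 2 with the combination, and 0 were called with anastrozole, where 6.06%, 2.71% and 1.40% of all genes rose. Their median change was 0.15 with E2, 0.07 with the combination and 0.03 with anastrozole. HSD17B12, the ketoreductase of the elongation cycle, measured 109 ± 4.88 CPM with vehicle and 132 ± 4.66 with E2, a rise by 0.27 ± 0.04 (adjusted p = 2.0e-08), and rose by 0.18 with the combination (adjusted p = 0.0020), a call lost with limma-voom (0.084). FADS6, at 0.829 CPM with vehicle and 1.65 with E2, rose by 0.98 ± 0.34 (adjusted p = 0.034) from a low level. That call was kept in 2 of 6 fits that leave out a library, being lost without vehicle replicate a or c or E2 replicate a or b (adjusted p up to 0.179), and was lost with limma-voom (0.092). The change of FADS6 with anastrozole was 1.07 and did not pass (adjusted p = 0.055). With the combination FADS6 rose by 1.14 (adjusted p = 0.013). That combination call was kept in 3 of 6 fits that leave out a library (adjusted p up to 0.241 in the others). It was lost with limma-voom (0.182). Of 21 other acyl-CoA synthetase and carboxylase genes, 1 fell with anastrozole, 1 rose and 2 fell with E2, and 1 fell with the combination, against 2.27%, 5.95% and 2.33% of all genes lower and 6.06% higher with E2. Their median change lay between -0.03 and -0.02. ACSL4, a synthetase that favours arachidonate, rose by 0.39 ± 0.10 with E2 (adjusted p = 0.0032), and ACSF3, a mitochondrial malonyl-CoA synthetase, fell by 0.32 with E2 (2.0e-05) and by 0.24 with anastrozole (adjusted p = 0.035). The anastrozole call was kept in 1 of 6 fits that leave out a library, that without anastrozole replicate c, and in 4 of 9 other settings, and with the GC trend removed the change was -0.18 (adjusted p = 0.14). ACSS1, the mitochondrial counterpart of ACSS2, fell by 0.28 ± 0.08 with E2 (adjusted p = 0.0089).

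Of 16 glycerolipid synthesis genes, which build fatty acids into stored and membrane lipid, 15 had reads, and 0 were called with anastrozole, 1 rose and 3 fell with E2, and 1 fell with the combination. Among all genes 1.40% rose and 2.27% fell with anastrozole, 6.06% and 5.95% with E2, and 2.71% and 2.33% with the combination. The acyltransferases AGPAT4 and AGPAT3 changed by -0.39 and -0.17 with E2 (adjusted p = 0.0063 and 0.0069), AGPAT5 rose by 0.21 (0.0055), and the lipid droplet gene PLIN3 fell by 0.18 (0.0092). Of 28 fatty acid oxidation genes, 0 were called with anastrozole, 1 rose and 4 fell with E2, and 0 rose and 4 fell with the combination, beside the same shares of all genes. The median change of both lists lay between -0.03 and 0.02 in each comparison. CPT1A, which admits fatty acids to mitochondria, measured 263 ± 3.71 CPM with vehicle, 263 ± 5.55 with anastrozole, 222 ± 2.12 with E2 and 237 ± 4.74 with the combination. It fell by 0.25 ± 0.03 with E2 (adjusted p = 1.8e-10) and by 0.15 ± 0.04 with the combination (adjusted p = 0.0019). Against E2, CPT1A was higher with anastrozole by 0.25 ± 0.04 (adjusted p = 2.5e-07), a call held in all 15 alternative fits. SLC25A20, the mitochondrial acylcarnitine carrier, fell by 0.20 with E2 (adjusted p = 0.011), and PPARGC1A, at 2.78 CPM with vehicle, rose by 0.65 ± 0.19 (adjusted p = 0.0096). For PPARGC1A the change was 0.41 without vehicle replicate c (adjusted p = 0.25), 0.60 without vehicle replicate a (0.053) and 1.004 without vehicle replicate b, and limma-voom did not call it (0.11). With anastrozole alone the change of CPT1A was -0.00 (adjusted p = 1). With the GC trend removed, the E2 changes of SREBF2, RXRA, INSIG1, INSIG2, SLC25A1, ACSL4, ACSS1, AGPAT3, AGPAT5 and PLIN3 no longer passed, and those of SREBF1, PC, TALDO1, HSD17B12, FADS6, ACSF3, AGPAT4, CPT1A, PPARGC1A and SLC25A20 did. When the replicate letter was added as a block to that fit, PC (adjusted p = 0.056) and TALDO1 (0.061) did not pass either. Leaving out 1 library also ended the E2 calls of INSIG1 (vehicle replicate a or E2 replicate b), INSIG2 and AGPAT4 (vehicle replicate c or E2 replicate c), AGPAT3 (vehicle replicate c), PLIN3 (vehicle replicate a or E2 replicate c), ACSS1 (vehicle replicate a or E2 replicate a) and SLC25A20 (vehicle replicate a or E2 replicate a or b), with adjusted p from 0.056 to 0.149. With DESeq2 the E2 calls of SREBF2, INSIG2, AGPAT4, PLIN3 and SLC25A20 were lost (adjusted p from 0.052 to 0.075), and with limma-voom those of SREBF2, INSIG1, AGPAT4, PLIN3 and SLC25A20 (0.058 to 0.096).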

How the data were processed

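RNA from T47D cells was sequenced in 12 libraries. The authors aligned reads to hg19 with TopHat2 2.0.14 and Bowtie2 2.2.6, counted them per gene with HTSeq, and deposited raw counts, whole numbers per gene symbol with no normalization. The HTSeq version, strand setting and annotation are not given in the sources used here, and the 5 summary lines of the table were left out of library sizes. Reads shared by several genes are in none of them, so genes with near-identical copies or overlaps can be undercounted.

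From the counts, 4238 genes at 0 in all libraries were removed and 21132 tested. edgeR 4.0.16 (R 4.3.3) compared groups 6 libraries at a time (TMM, then glmQLFit with robust dispersions and its F test, two-sided, Benjamini-Hochberg over all genes tested, threshold 0.05) and fitted the interaction on all 12. Standard errors are the absolute log2 fold change over the square root of F, and rest on dispersions estimated partly across genes. Levels are TMM-normalized CPM. The alternatives were DESeq2 size factors, library size alone, filterByExpr, DESeq2 1.42.0, limma-voom (limma 3.58.1), all 12 libraries, the replicate letter as a block, a lowess offset on GC content (span 0.5, genes of at least 3 log2 CPM), that offset with the block, and leaving out each library. Positions, transcript lengths and GC content came from GENCODE release 44 on GRCh37, with 21539 genes matched by symbol, 1493 by an older symbol and 2338 unmatched. The fit was also run on simulated data, and no outcome of that is given here.

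The 10 genes and the 6 lists were chosen with earlier results of these data known. Named from each list were up to 4 called genes with the smallest adjusted p with anastrozole or E2, and 6 fixed regulators; some of these genes are not reported here. Between 9914253 and 17009776 reads per library set the precision, and 3 reads correspond to 0.177 to 0.303 CPM.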

Additional observations from a re-analysis of the deposited data

Results flagged for a closer look

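The effect of anastrozole on FASN differed with the presence of E2, by 0.41 on the log2 scale in the interaction test (edgeR adjusted p = 3.4e-06). Against vehicle the change was -0.29 and against E2 0.12. Against E2 it was -0.01 (adjusted p = 0.93) with the GC offset and was not called in a fit on all 12 libraries (adjusted p = 0.11). The interaction was 0.14 (adjusted p = 0.018) with the GC offset and 0.42 (adjusted p = 0.052) without combination replicate a. It was called in 11 of 12 fits that leave out a library and in 8 of 8 other settings.

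For FADS2 the same difference was 0.22 (adjusted p = 0.032). It was 0.06 (adjusted p = 0.80) with the GC offset, and it was called in 5 of 12 fits that leave out a library and in 4 of 8 other settings. The calls were lost without vehicle replicate a or c, anastrozole replicate a or b, E2 replicate c, or combination replicate a or b, where it lay between 0.19 and 0.22 (adjusted p from 0.067 to 0.13).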

How the results depend on the processing

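The number of the 10 genes called changed as follows. With anastrozole against vehicle (4) it was 2 with filterByExpr, 2 with DESeq2 and 0 with limma-voom, and 1 to 5 when a library was left out. With E2 against vehicle (4) it was 3 or 4 in every setting, those leaving out a library included, and with the combination against E2 (3) it was 2 or 3. With the combination against vehicle (6) it was 3 with limma-voom and 4 to 6 when a library was left out. With anastrozole against E2 (2) it was 1 with filterByExpr, 1 with DESeq2, 1 with limma-voom, and 0 to 3 when a library was left out. With the combination against anastrozole (0) it was 1 with the GC offset and replicate block together and 0 to 2 when a library was left out. For the interaction (2) it was 1 with DESeq2, limma-voom, the GC offset or the GC offset with the block, and 0 to 3 when a library was left out.

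The libraries showed little sign of pairing by letter. Whether same-lettered libraries were prepared together is not known here, and weak correlations cannot settle it. Deviations from the group means of same-lettered libraries correlated between -0.195 and 0.184 over 11037 genes, and in no comparison were all 3 over 0.1. For the combination against vehicle they were 0.139, 0.067 and 0.035 for a, b and c. With the replicate block, anastrozole against E2 had 0 of the 10 genes called (ACSS2 adjusted p = 0.071, SCD 0.051). The combination against vehicle had 7, among them ACACA (edgeR adjusted p = 0.0091, against 0.071 without the block). The other comparisons were within 1.5 times their counts.

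Signs that turned belonged to values that had not passed, with 1 exception. With the GC offset, E2 against vehicle gave -0.0136 for SCD, -0.0117 for ELOVL6, 0.0314 for FADS1, -0.0130 for ACSL3, 0.0587 for SCAP and 0.0226 for MLXIPL, anastrozole gave 0.0094 for MLXIPL, and the ACSL3 interaction was 0.0041. The GC offset with the block gave -0.0136, -0.0120, 0.0307, -0.0129, 0.0573, 0.0216, 0.0111 and 0.0029 for the same values. FASN, the exception, was -0.0149 under both offsets for the combination against E2, and for the combination against anastrozole it was -0.0924 and -0.0922, the latter called (adjusted p = 0.039), while without anastrozole replicate c that contrast was called at 0.1288 (0.010). ELOVL5 with anastrozole was 0.0009 with library size alone. Leaving out a library moved ELOVL5 with anastrozole between -0.027 and 0.0168, ACSS2 with E2 between -0.0384 and 0.0336, FADS1 with E2 between -0.0391 and 0.0168 and with the combination between -0.008 and 0.0483, ACSL3 with the combination between -0.0043 and 0.0713, FASN for anastrozole against E2 between -0.0041 and 0.1763 and for the combination against anastrozole between -0.0563 and 0.1288.

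Of 695 alternative values for the 10 genes, 583 kept their direction and side of the threshold, 66 lost a call, 18 gained one and 28 turned in sign. Of 730 for the other named genes, 587 did so, 130 lost a call, 7 gained one and 6 turned in sign. The causes were not tested. All genes called with anastrozole numbered 776, and from 15 (limma-voom) to 1651 (without anastrozole replicate c) otherwise, and the GC offset moved the share of higher calls from 38.1% to 52.7%. DESeq2 gave no adjusted p for ELOVL6 in anastrozole against E2 and in the combination against anastrozole.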
